A study of Mus musculus with 12 samples.

Results

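The presynaptic vesicle and release machinery was followed as a set of 38 genes in primary mouse hippocampal neurons, from the proteins that clothe the synaptic vesicle to the scaffold on which it is released. The 38 genes were taken by name. The Entrez identifiers of the count tables were paired with mouse symbols, and the 38 symbols were looked up among 27179 listed genes, of which 25275 (93%) had a symbol. All 38 were found, and all 38 passed the filter on low counts together with 14185 genes in all.

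Synaptic vesicles are filled with transmitter by transporters in their membrane, tethered by synapsins and Rab3, docked and primed at the active zone by RIM, Munc13, ELKS and liprin proteins, and fused by the SNARE proteins VAMP, SNAP25 and syntaxin when synaptotagmin senses calcium. NSF and the SNAP adaptors then take the spent SNARE complexes apart, and dynamin, amphiphysin and synaptojanin retrieve the membrane. Their mRNAs are made in the nucleus of the cell body, and some mRNAs of neurons are carried on into axons and dendrites.

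Neurons came from newborn pups, C57BL/6 by the labels, while the study's methods name both C57BL/6 and FVB for its hippocampal neurons. They were kept 17 or 18 days in vitro on a porous Transwell membrane. Ctrl cultures received DMSO, the solvent of the drug, and MG132 cultures received the proteasome inhibitor MG132 at 10 μM for 7 h. Cell bodies were scraped off the membrane to give the somas fraction, and the RNA left on the membrane gave the neurites fraction. Each of the 4 groups (somas and neurites of Ctrl, and the same of MG132) held 3 libraries. The labels name no allele or transgene in any group. In bulk RNA of this kind, fewer cells of a type and less RNA per cell cannot be told apart.

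The libraries held 4247610 to 22166347 counts, and the 38 genes took 0.126% to 0.658% of them. Mitochondrially encoded genes took 9.78% to 29.2% and the most abundant gene took 12.4% to 33.4%, with the highest value of each in a neurites library. Levels are therefore given as counts per 1000000 (CPM) of a library size that was scaled by the trimmed mean of M-values (TMM), and a gene was said to have passed where its Benjamini-Hochberg adjusted p over all 14185 genes was under 0.05 in edgeR's quasi-likelihood test. The 5 heat shock and stress genes used to check the treatment (*Hspa1a*, *Hspa1b*, *Dnajb1*, *Hspb1* and *Hmox1*) rose in both fractions, 5 of 5. Neither fraction was neurons alone. All 18 neuron markers were present, and the 10 astrocyte markers summed to 4906 to 6102 CPM in Ctrl somas and 21000 to 26170 CPM in Ctrl neurites, against 1485 to 2057 and 1697 to 2444 CPM for the neuron markers. The oligodendrocyte-lineage sum was 1508 to 6702 CPM in Ctrl somas and 5147 to 22910 CPM in Ctrl neurites. Within every group the replicate 1 library, by its name grown 18 days where the others were grown 17, had the highest presynaptic levels, with the median of the 38 genes 0.35 to 0.59 above the group mean on the log2 scale. For replicate 1 the culture date and the days in vitro cannot be told apart.

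Compared per kilobase of exon, the genes of the set spanned a wide range. *Snap25*, the SNARE of the presynaptic membrane, had the highest level in all 4 groups, with 118 ± 31.6 CPM per kb in Ctrl somas, 93.2 ± 37.2 in Ctrl neurites, 108 ± 33.9 in MG132 somas and 62.0 ± 23.6 in MG132 neurites (SD, n = 3). Synaptophysin (*Syp*, 97.8 ± 15.4), *Slc17a7* (71.5 ± 25.7), *Vamp2* (60.2 ± 17.3) and *Nsf* (58.4 ± 13.9) came next in Ctrl somas, and in that order the mean ± SD ranges of neighbours overlapped. At the lower end *Slc17a6*, *Sv2c*, *Unc13b* and *Syn3* stayed under 3 CPM per kb in every group. A pair of genes moved far up this order with MG132. *Napa* stood at place 18 of 38 in Ctrl somas and 7 in MG132 somas, and at 14 and 4 in neurites. *Erc1* stood at 27 and 21 in somas, and at 23 and 10 in neurites.

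With MG132, 4 of the 38 genes passed in somas and 10 in neurites. In somas, 2 of 38 genes rose (*Napa* and *Erc1*), where 15.5% of all genes tested rose, and 2 fell (*Sv2a* and *Syngr1*), where 11.9% of all genes fell. In neurites, 3 of 38 rose (*Erc1*, *Sv2c* and *Napa*), against 14.7% of all genes, and 7 of 38 fell (*Sncb*, *Syngr1*, *Sv2a*, *Vamp1*, *Syp*, *Syn3* and *Vamp2*), against 12.3% of all genes. Each of these 7 falls was lost when MG132 neurites replicate 3 was left out (edgeR adjusted p 0.0561 to 0.177). By its name that library did not share the culture date of its number. Groups of 3 libraries without overlap were common over all genes. In somas every MG132 library was above every Ctrl library for 2 of 38 genes and below for 4, against 23.2% and 22.7% of all genes. In neurites this held for 3 and 6 of 38, against 20.4% in each direction. Over the 38 genes the MG132 response had a median of -0.09 (somas) and -0.32 (neurites) on the log2 scale, beside -0.07 and -0.16 over all genes tested. These medians moved when 1 replicate 1 library was left out of a comparison. Without its Ctrl library they were 0.11 in somas and 0.08 in neurites, and without its MG132 library -0.35 and -0.57. With replicates 2 and 3 alone they were -0.13 and -0.21, beside -0.06 and -0.13 over all genes. With the replicate number as a term in the model they were -0.09 and -0.29, beside -0.07 and -0.15.

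By their names, libraries of one replicate number shared a culture date, except replicate 3 of MG132 neurites, and with that number as a term in the model the calls were more numerous. In somas 2 of 38 genes rose against 19% of all genes, and 7 of 38 fell (*Syngr1*, *Sv2a*, *Syp*, *Syt1*, *Rab3a*, *Sv2b* and *Cplx2*) against 17.4% of all genes. In neurites 3 of 38 rose against 17.7%, and 13 of 38 fell (the 7 above with *Cplx2*, *Snap25*, *Cplx1*, *Sv2b*, *Rab3a* and *Syt1*) against 18.1%. Glial markers also moved with MG132. In somas 8 of 10 astrocyte, 5 of 10 oligodendrocyte-lineage and 5 of 10 microglial markers fell, 5, 5 and 8 of 10 fell in neurites, and 0 rose. Of the 18 neuron markers 1 rose in each fraction, 1 fell in somas and 3 fell in neurites, and in the model with the replicate number 1 rose and 3 fell in somas, and 2 rose and 4 fell in neurites. Excitatory neuron markers fell for 3 of 7 in somas and 1 of 7 in neurites, and GABAergic markers for 1 of 6 in each. The part of these shifts in the presynaptic values was not tested. When libraries were scaled on the summed counts of the 18 neuron markers, a choice made after seeing these levels, 2 genes rose and 0 fell in somas, and 3 rose and 2 fell (*Syngr1* and *Sncb*) in neurites. With replicates 2 and 3 alone, also chosen after seeing the data, 1 rose and 2 fell in somas, and 3 rose and 1 fell in neurites. For both of these settings the share of all genes called is not given, so their counts cannot be set against it.

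**Figure D1:**
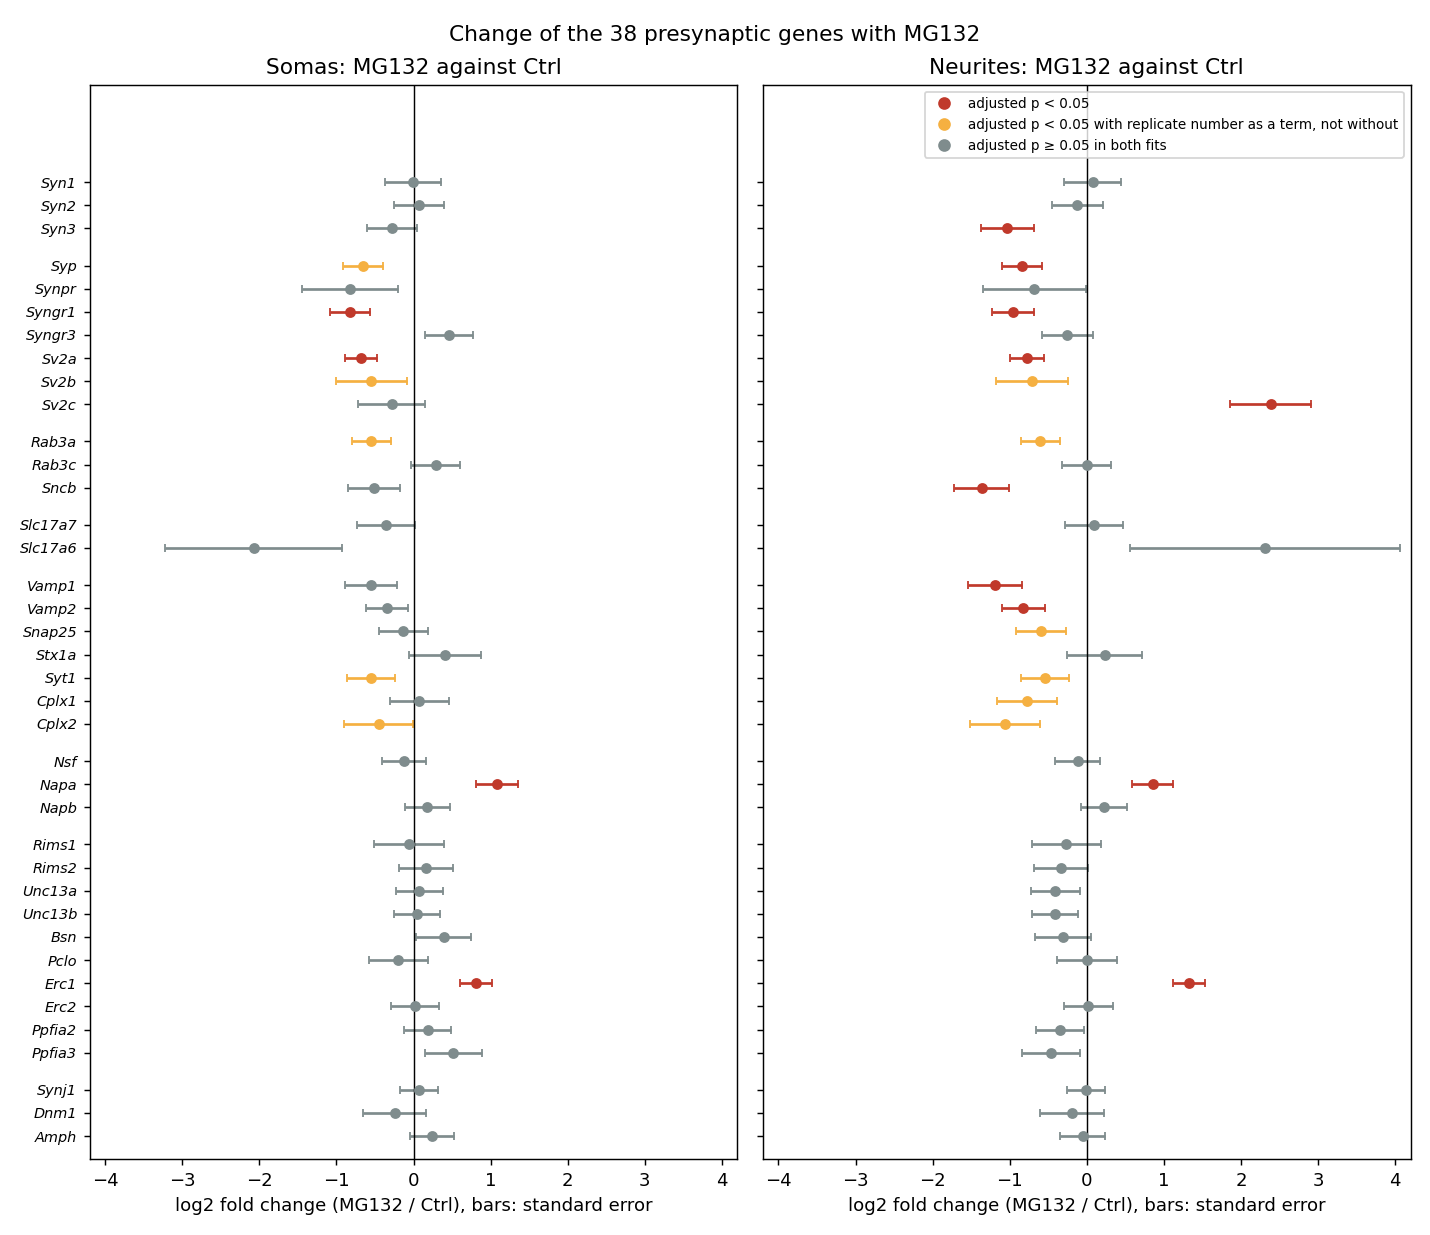
Log2 fold change with MG132 (x axis) for each of the 38 presynaptic genes, ordered by role, in somas (left) and neurites (right), with bars for the standard error of the fit to 3 libraries per group. Red points passed, orange points passed with the replicate number as a term and not in the edgeR fit without it, and grey points passed in neither fit. *Erc1* and *Napa* lie to the right of 0 in both fractions, *Sv2a* and *Syngr1* to the left in both, and *Sv2c* at 2.39 in neurites. *Slc17a6* had too few counts in neurites for its point to be read.

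The promoters of the 4 genes that passed in the same direction in both fractions are shown, since they moved together in pairs. Each runs from 250 bases before to 50 after the start of the transcript, 5′ to 3′ on the gene's strand, as RefSeq gives it for GRCm38.p6, and capitals mark a searched motif. *Erc1* lies at chr6:119848101-119848400 (minus strand) and *Napa* at chr7:16098330-16098629 (plus strand), and both rose. *Sv2a* lies at chr3:96180977-96181276 (plus strand) and *Syngr1* at chr15:80091084-80091383 (plus strand), and both fell.
Erc1: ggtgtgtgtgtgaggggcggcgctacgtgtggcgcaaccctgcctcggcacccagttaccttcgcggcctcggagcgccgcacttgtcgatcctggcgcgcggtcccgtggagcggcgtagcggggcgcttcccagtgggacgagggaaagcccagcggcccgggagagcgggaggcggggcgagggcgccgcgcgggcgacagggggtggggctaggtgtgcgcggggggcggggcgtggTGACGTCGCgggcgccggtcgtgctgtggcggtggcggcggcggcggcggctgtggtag
Napa: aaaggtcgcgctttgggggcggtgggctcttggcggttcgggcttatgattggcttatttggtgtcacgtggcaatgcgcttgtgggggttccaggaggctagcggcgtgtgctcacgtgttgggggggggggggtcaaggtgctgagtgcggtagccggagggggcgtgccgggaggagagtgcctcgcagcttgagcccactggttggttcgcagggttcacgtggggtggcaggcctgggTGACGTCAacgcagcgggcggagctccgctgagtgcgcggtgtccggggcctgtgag
Sv2a: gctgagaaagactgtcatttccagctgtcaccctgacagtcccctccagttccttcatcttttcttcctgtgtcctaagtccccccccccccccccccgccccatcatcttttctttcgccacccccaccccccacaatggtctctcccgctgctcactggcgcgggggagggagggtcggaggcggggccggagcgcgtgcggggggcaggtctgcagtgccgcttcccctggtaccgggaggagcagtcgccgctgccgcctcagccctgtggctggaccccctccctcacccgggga
Syngr1: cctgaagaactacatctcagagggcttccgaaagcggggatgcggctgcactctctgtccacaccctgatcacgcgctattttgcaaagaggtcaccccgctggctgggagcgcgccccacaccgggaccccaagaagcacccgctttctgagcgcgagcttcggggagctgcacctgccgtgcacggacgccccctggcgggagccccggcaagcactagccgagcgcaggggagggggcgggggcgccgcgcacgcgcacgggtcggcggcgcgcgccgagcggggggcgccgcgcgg

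RefSeq promoters were found for 33 of the 38 genes, 42 in all, and 3 motifs were searched on both strands. The heat shock element GAANNTTCNNGAA was in 0 of the 42 promoters and in 0.603% of 32851 mouse promoters of the same length. The antioxidant response element TGACNNNGC was in 6 of the 42 (*Amph*, *Erc1*, *Rab3c*, *Synpr*, *Unc13a* and *Vamp1*) and in 12.4% of all promoters. The cAMP response element TGACGTCA was in 2 of the 42 (*Napa* and *Syn1*) and in 1.79% of all. The *Erc1* match starts 9 bases before the transcript start (position -9) and the *Napa* match at position -7. A match describes letters in a window of 300 bases and no binding was measured.

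*Erc1* encodes ELKS, a scaffold of the active zone that cells outside the nervous system also use in secretion. Its level was 63.1, 58.8 and 59.2 CPM in Ctrl somas and 123, 93.1 and 100.5 in MG132 somas, with library values given here and throughout in the order of replicates 1, 2 and 3 and with Ctrl before MG132. In neurites it was 85.1, 74.0 and 81.0 CPM in Ctrl and 214, 135 and 255 in MG132. In both fractions every MG132 library was above every Ctrl library, and the highest value of all was an MG132 neurites library. The rise was 0.81 ± 0.21 SE on the log2 scale (edgeR adjusted p = 0.00957) in somas and 1.33 ± 0.21 SE on the log2 scale (edgeR adjusted p = 2.99e-04) in neurites. Both rises passed without any 1 library, while the somas rise did not pass on replicates 2 and 3 alone (adjusted p = 0.106) or on total counts (0.0648). Its paralog *Erc2* lay at 54.8, 31.0 and 37.2 CPM in Ctrl somas and 53.2, 29.3 and 41.8 in MG132 somas, and at 33.8, 35.3 and 23.4 against 46.5, 20.9 and 27.3 in neurites, overlapping in both fractions. In the mouse annotation 19.5% of the *Erc1* exon bases lie opposite the antisense gene *Gm44317*, which the count tables did not list, and counting at the default setting does not use strand, so reads of the pair could not be separated.

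*Napa* encodes alpha-SNAP, the adaptor through which NSF pulls SNARE complexes apart in most cells. It measured 62.8, 38.3 and 31.2 CPM in Ctrl somas and 116, 83.4 and 81.2 in MG132 somas. Ctrl neurites held 62.6, 37.6 and 35.4 CPM and MG132 neurites 76.3, 78.8 and 88.5. The groups did not overlap in either fraction, and the level rose in 3 of 3 same-numbered pairs of both. The rise was 1.08 ± 0.27 SE on the log2 scale (edgeR adjusted p = 0.00793) in somas and 0.85 ± 0.27 SE on the log2 scale (edgeR adjusted p = 0.0296) in neurites, where it did not pass without 1 of Ctrl neurites 2, Ctrl neurites 3, MG132 neurites 2 or MG132 neurites 3 (adjusted p 0.0538 to 0.104). The neurites rise also did not pass on total counts (edgeR adjusted p = 0.131). It narrowly missed on total counts without mitochondrial genes and the most abundant gene (0.0505). *Napb*, the form made mainly in brain, did not pass, with 151, 113 and 100.4 against 151, 109 and 153 CPM in Ctrl and MG132 somas and 129.8, 88.5 and 51.7 against 136, 76.2 and 103 in neurites. *Nsf*, the ATPase both adaptors serve, averaged 219.9 ± 52.5 CPM in Ctrl somas, 202 ± 54.1 in MG132 somas, 127 ± 30.9 in Ctrl neurites and 118 ± 48.2 in MG132 neurites. It did not pass in the edgeR fit without the replicate number. With that number as a term it was lower in neurites in Ctrl (log2 fold change -0.78, adjusted p = 6.34e-04) and in MG132 (log2 fold change -0.82, adjusted p = 3.22e-04), and DESeq2 without it gave an adjusted p of 0.0463 in Ctrl.

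The 7 vesicle membrane proteins held both falls in somas and 3 of the 7 falls in neurites. *Sv2a*, the vesicle glycoprotein that binds the antiepileptic levetiracetam, fell in both fractions. It went from 127, 116 and 105 CPM in Ctrl somas to 79.6, 67.7 and 70.0 in MG132 somas, and from 87.5, 56.4 and 43.8 in Ctrl neurites to 39.9, 34.2 and 35.5 in MG132 neurites. No MG132 library reached a Ctrl library of its fraction. The fall was -0.68 ± 0.21 SE on the log2 scale (edgeR adjusted p = 0.0276) in somas and -0.77 ± 0.22 SE on the log2 scale (edgeR adjusted p = 0.0162) in neurites. The somas call did not pass without 1 of Ctrl somas 1, Ctrl somas 2, MG132 somas 2 or MG132 somas 3 (adjusted p 0.0703 to 0.11), and the neurites call did not pass without 1 of Ctrl neurites 1, MG132 neurites 2 or MG132 neurites 3 (adjusted p 0.0572 to 0.109). Scaled on the neuron markers the log2 fold changes were -0.59 (adjusted p = 0.139) and -0.61 (0.131).

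*Syngr1*, a tetraspan protein of the vesicle membrane, went from 153, 112 and 110.2 to 88.2, 55.1 and 68.3 CPM in somas and from 119, 79.9 and 66.3 to 60.6, 33.0 and 43.5 CPM in neurites. Both steps left the groups apart. The fall was -0.82 ± 0.26 SE on the log2 scale (edgeR adjusted p = 0.0302) in somas and -0.96 ± 0.27 SE on the log2 scale (edgeR adjusted p = 0.0155) in neurites. In somas the call did not pass without 1 of Ctrl somas 1, Ctrl somas 2, Ctrl somas 3, MG132 somas 2 or MG132 somas 3 (adjusted p 0.0512 to 0.153), and in neurites it did not pass without 1 of Ctrl neurites 1, MG132 neurites 2 or MG132 neurites 3 (adjusted p 0.0712 to 0.105). *Syngr3*, another member of that family, did not pass with MG132, at 18.3, 14.7 and 11.2 against 25.7, 18.2 and 17.1 CPM in somas and 17.7, 8.27 and 9.07 against 10.0, 9.85 and 9.04 in neurites.

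*Syp*, the most abundant protein of the vesicle membrane, measured 299, 233 and 227 CPM in Ctrl somas and 187, 145 and 149.8 in MG132 somas. In neurites it measured 208, 142 and 83.5 in Ctrl and 96.2, 72.5 and 72.9 in MG132. The MG132 libraries were below all Ctrl libraries in somas and overlapped in neurites by way of Ctrl replicate 3. In neurites it fell (log2 fold change -0.84 ± 0.26 SE, edgeR adjusted p = 0.0276), and that call did not pass without 1 of Ctrl neurites 1, Ctrl neurites 2, MG132 neurites 2 or MG132 neurites 3 (adjusted p 0.0556 to 0.171). In somas it passed with the replicate number as a term (log2 fold change -0.65, adjusted p = 0.00314) and not in the edgeR fit without it (adjusted p = 0.0742), while DESeq2 without it gave 0.0394. *Synpr* (synaptoporin) averaged 35.1 ± 25.2, 19.6 ± 8.4, 17.5 ± 13.7 and 10.9 ± 4.53 CPM in the somas of Ctrl and MG132 and then the neurites of both, and passed in no comparison. Of the *Syp* exon bases, 33.8% lie opposite the antisense gene *Gm14703*, also absent from the count tables.

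The remaining SV2 genes went different ways. *Sv2b* measured 233, 118 and 138 CPM in Ctrl somas, 172, 66.2 and 96.2 in MG132 somas, 108, 51.8 and 35.4 in Ctrl neurites and 62.2, 18.2 and 40.1 in MG132 neurites. Replicate 1 was the highest in each group, and the level fell with MG132 in the model with the replicate number (log2 fold change -0.60, adjusted p = 0.0215 in somas and log2 fold change -0.74, adjusted p = 0.00769 in neurites) and did not pass in the edgeR fit without it. *Sv2c*, a form found chiefly in basal ganglia and brainstem, had few counts. It measured 7.11, 6.76 and 17.9 CPM in Ctrl somas and 10.9, 5.15 and 9.66 in MG132 somas, but 0.793, 1.45 and 1.01 in Ctrl neurites against 6.61, 4.88 and 6.56 in MG132 neurites. Ctrl neurites stood below the other 3 groups, with 3, 13 and 6 counts. The rise in neurites was 2.39 ± 0.52 SE on the log2 scale (edgeR adjusted p = 0.00354), and it passed without any 1 library.

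**Figure D2:**
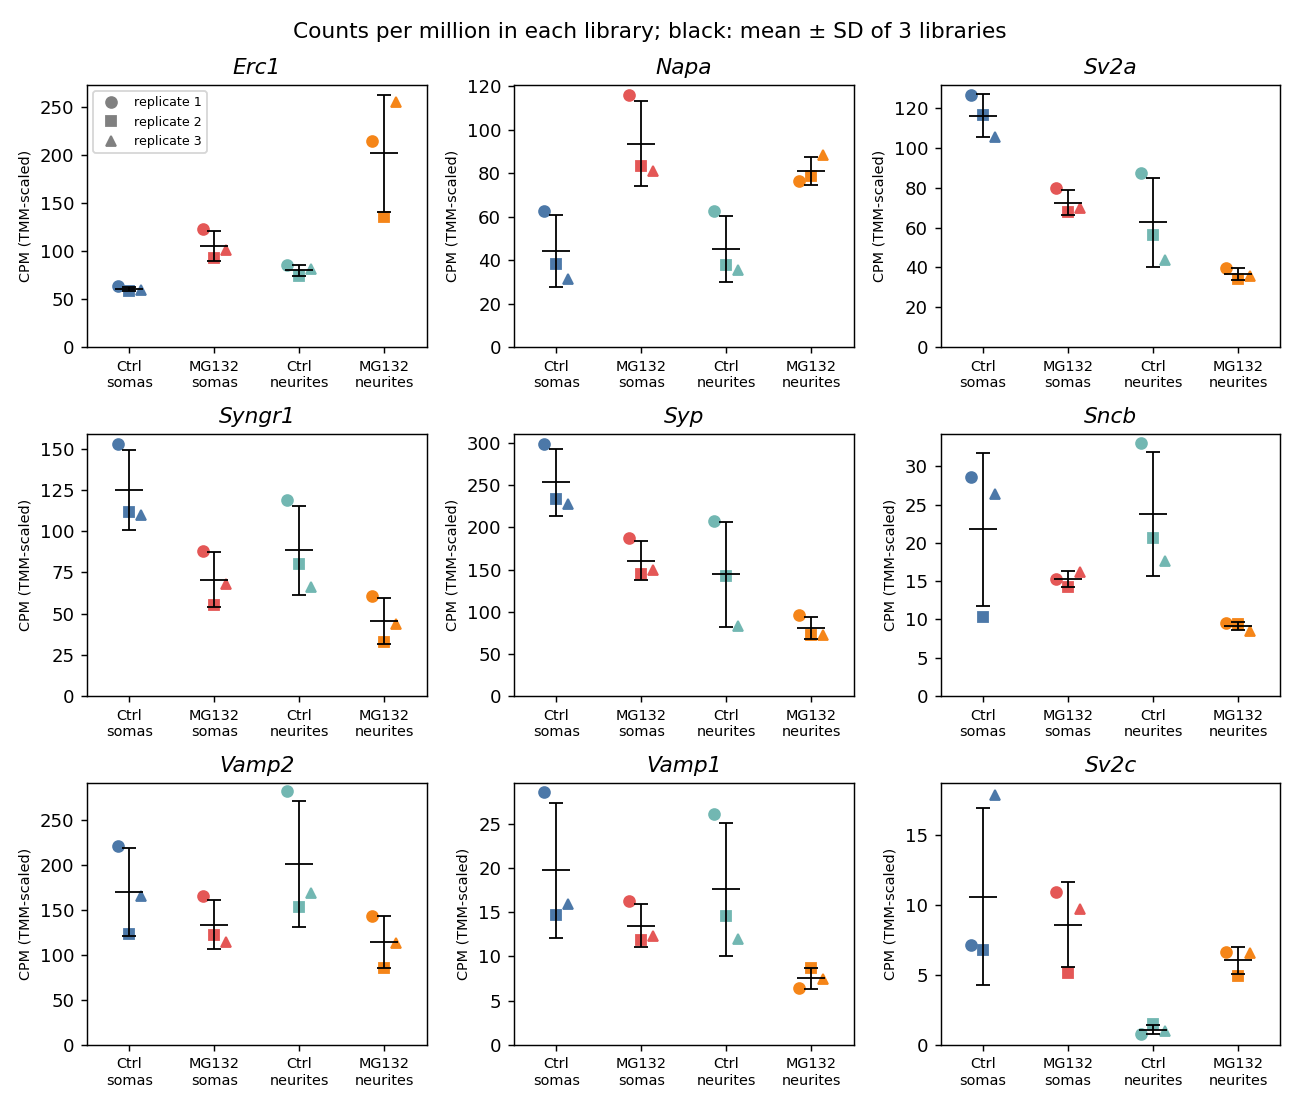
Level in each of the 12 libraries (y axis, TMM-scaled CPM, from 0) for 9 presynaptic genes that passed with MG132 in at least 1 fraction, with the mean and SD of 3 libraries in black and a symbol for each replicate number. The MG132 libraries of *Erc1* and *Napa* sit above the Ctrl libraries of their fraction, those of *Sv2a* and *Syngr1* below, and *Sv2c* is at 0.793 to 1.45 CPM in Ctrl neurites.

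Among the synapsins, which tie vesicles to each other and to actin, *Syn3* fell in neurites. Its level was 14.8, 9.61 and 9.74 CPM in Ctrl neurites and 6.15, 4.74 and 5.85 in MG132 neurites, with no overlap (log2 fold change -1.03 ± 0.34 SE, edgeR adjusted p = 0.0365). The call did not pass without 1 of Ctrl neurites 1, Ctrl neurites 3, MG132 neurites 1, MG132 neurites 2 or MG132 neurites 3 (adjusted p 0.0586 to 0.127). In somas it was 18.8, 9.08 and 11.6 against 11.8, 11.7 and 9.26 CPM. *Syn1* and *Syn2* overlapped between Ctrl and MG132 in both fractions. *Syn1* measured 92.7, 49.0 and 65.8 against 101, 45.8 and 59.5 CPM in Ctrl and MG132 somas, and 67.9, 49.6 and 36.1 against 82.5, 30.0 and 50.7 in neurites. *Syn2* measured 173, 81.5 and 114 against 168, 93.9 and 124 CPM in somas, and 122, 81.8 and 67.7 against 115, 51.4 and 83.4 in neurites. The *Syn3* counts are uncertain, since 35.3% of the 75-base windows of its longest annotated transcript also occur in transcripts of *Timp3*, which averaged 304.3 CPM in Ctrl somas. Whether the exons used for counting hold that shared stretch was not tested.

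Beta-synuclein and the Rab3 GTPases sit on the outer face of the vesicle. *Sncb*, the beta-synuclein gene, fell in neurites from 33.0, 20.7 and 17.6 CPM in Ctrl to 9.57, 9.39 and 8.51 in MG132, with the groups apart (log2 fold change -1.36 ± 0.35 SE, edgeR adjusted p = 0.00987). The call did not pass without MG132 neurites 3 (adjusted p = 0.0561), and the adjusted p was 0.109 on replicates 2 and 3 alone. In somas *Sncb* measured 28.6, 10.3 and 26.4 CPM in Ctrl, where replicate 2 lay below every MG132 library, and 15.3, 14.3 and 16.3 in MG132. *Rab3a* measured 68.8, 47.5 and 51.2 against 46.8, 34.7 and 33.3 CPM in Ctrl and MG132 somas, and 61.3, 38.9 and 32.9 against 34.4, 25.5 and 27.7 in neurites. It was lower in 3 of 3 pairs of each fraction and passed with the replicate number as a term (log2 fold change -0.55, adjusted p = 0.016 in somas and log2 fold change -0.57, adjusted p = 0.0151 in neurites), not in the edgeR fit without it. *Rab3c* did not pass, at 94.7, 81.6 and 61.4 against 114, 97.5 and 79.0 CPM in somas and 90.4, 79.4 and 44.4 against 111, 44.7 and 60.1 in neurites.

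The vesicular glutamate transporters load vesicles with glutamate. *Slc17a7* (VGLUT1), the main form of the hippocampus, measured 299, 151 and 192 CPM in Ctrl somas, 237.5, 127 and 136 in MG132 somas, 177, 99.0 and 87.2 in Ctrl neurites and 199, 69.1 and 120.2 in MG132 neurites. Ctrl and MG132 overlapped in both fractions. *Slc17a6* (VGLUT2) was close to absent outside Ctrl somas, with 26, 36 and 47 counts there, 0, 10 and 19 in MG132 somas, 0, 0 and 1 in Ctrl neurites and 0, 8 and 3 in MG132 neurites. No fold change is given for *Slc17a6*, and without it the other 37 genes had a median MG132 response of -0.06 (somas) and -0.33 (neurites) on the log2 scale.

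Of the SNARE proteins, both vesicle SNAREs fell in neurites. *Vamp2*, the form that drives most release in the forebrain, went from 282, 153 and 168 CPM in Ctrl neurites to 143, 85.7 and 113 in MG132 neurites (log2 fold change -0.82 ± 0.27 SE, edgeR adjusted p = 0.0377). *Vamp1* went from 26.2, 14.6 and 11.9 to 6.38, 8.72 and 7.45 CPM (log2 fold change -1.19 ± 0.35 SE, edgeR adjusted p = 0.0200). Neither pair of groups overlapped. The *Vamp2* call did not pass without 1 of Ctrl neurites 1, Ctrl neurites 3, MG132 neurites 2 or MG132 neurites 3 (adjusted p 0.0804 to 0.195), and the *Vamp1* call did not pass without 1 of Ctrl neurites 1, MG132 neurites 1 or MG132 neurites 3 (adjusted p 0.0654 to 0.11). In somas *Vamp2* measured 221, 123 and 166 in Ctrl and 165, 122 and 114 CPM in MG132, and *Vamp1* 28.6, 14.7 and 15.98 against 16.3, 11.9 and 12.3. All groups overlapped there. *Snap25* averaged 208 ± 83.0 CPM in Ctrl neurites and 138 ± 52.6 in MG132 neurites and passed with the replicate number as a term (log2 fold change -0.60, adjusted p = 0.00442), not in the edgeR fit without it. Its somas means were 264 ± 70.6 and 240.6 ± 75.8. *Stx1a*, the syntaxin of the target membrane, averaged 6.59 to 9.04 CPM over the 4 groups and passed in no comparison.

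*Syt1*, the calcium sensor of fast release, measured 283, 197 and 189.8 against 192, 108 and 156 CPM in Ctrl and MG132 somas, and 129.8, 87.1 and 57.1 against 83.6, 41.5 and 63.0 in neurites. It passed for MG132 with the replicate number as a term (log2 fold change -0.56, adjusted p = 0.016 in somas and log2 fold change -0.55, adjusted p = 0.0217 in neurites), not in the edgeR fit without it. Complexins clamp the SNARE complex until calcium arrives. *Cplx2* measured 446, 190.2 and 184 CPM in Ctrl neurites and 186, 98.3 and 110.0 in MG132 neurites, with replicate 1 far above the others in both. With the replicate number as a term it fell in neurites (log2 fold change -0.99, adjusted p = 2.39e-05) and in somas (log2 fold change -0.45, adjusted p = 0.0231), where it measured 279.7, 97.4 and 144 against 206, 68.5 and 106 CPM. In somas each MG132 library was below the Ctrl library of its number. In the fit without the replicate number, the somas log2 fold change of *Cplx2* was 0.10 when Ctrl replicate 1 alone was left out. *Cplx1* measured 194, 69.8 and 71.6 against 88.0, 42.5 and 65.6 CPM in neurites, and passed there with the replicate number as a term (log2 fold change -0.68, adjusted p = 0.00719). Its somas values of 125, 61.4 and 76.4 against 118, 88.5 and 71.1 CPM overlapped.

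The active zone genes, other than *Erc1*, did not pass with MG132 in either fraction, with or without the replicate number in the model. *Rims1* and *Rims2* encode the RIM scaffolds that join vesicles to calcium channels. *Rims1* measured 56.8, 37.4 and 31.0 against 47.9, 45.0 and 28.4 CPM in Ctrl and MG132 somas and 207, 62.6 and 67.0 against 154, 51.1 and 75.02 in neurites. *Rims2* measured 33.7, 20.2 and 28.4 against 37.5, 24.0 and 30.4 CPM in somas and 77.2, 35.2 and 41.5 against 64.3, 29.9 and 28.4 in neurites. Both were at their highest in replicate 1 of Ctrl neurites. *Unc13a*, which encodes the priming factor Munc13-1, measured 84.3, 119 and 71.96 against 129.5, 88.9 and 72.2 CPM in somas and 66.1, 45.5 and 26.0 against 43.8, 28.6 and 31.2 in neurites. Its paralog *Unc13b* measured 17.9, 25.4 and 17.3 against 25.9, 22.0 and 14.9 CPM in somas and 28.3, 27.7 and 21.5 against 15.3, 27.8 and 14.4 in neurites. The very large scaffolds Bassoon and Piccolo (*Bsn* and *Pclo*) averaged 100.1 ± 24.7 and 123 ± 41.6 CPM in Ctrl somas and 131 ± 36.7 and 107 ± 29.9 in MG132 somas. The liprin genes *Ppfia2* and *Ppfia3* averaged 74.4 ± 15.3 and 27.2 ± 6.32 CPM in Ctrl somas and 84.8 ± 23.1 and 39.1 ± 8.1 in MG132 somas. Of the windows of the longest *Ppfia2* transcript, 28.6% also occur in other genes, *Acss3* among them.

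The 3 endocytosis genes did not pass with MG132 in either fraction, with or without the replicate number. *Synj1*, a phosphatase that takes part in the removal of clathrin coats, measured 166, 146 and 116 against 191, 132 and 125 CPM in Ctrl and MG132 somas. In neurites it measured 67.4, 96.0 and 49.7 against 78.6, 54.8 and 79.5. *Dnm1*, the dynamin of synaptic vesicles, averaged 126 ± 40.9, 106 ± 36.9, 56.7 ± 35.6 and 49.7 ± 22.6 CPM in Ctrl somas, MG132 somas, Ctrl neurites and MG132 neurites. *Amph* (amphiphysin) averaged 35.5 ± 11.1, 41.9 ± 10.3, 32.3 ± 9.95 and 31.2 ± 7.28 CPM in the same order.

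Between the fractions, presynaptic mRNAs lay mostly on the somas side. In Ctrl cultures 1 of 38 genes was higher in neurites (*Ppfia3*), where 10.2% of all genes tested were, and 7 of 38 were lower (*Sv2c*, *Sv2a*, *Syt1*, *Synj1*, *Slc17a6*, *Unc13a* and *Syp*), where 4.65% of all genes were. The *Slc17a6* call did not pass without 1 of Ctrl somas 2, Ctrl somas 3, Ctrl neurites 1, Ctrl neurites 2 or Ctrl neurites 3 (adjusted p 0.0539 to 0.0916). After MG132, 1 of 38 was higher in neurites (*Erc1*) against 11.4% of all genes, and 8 of 38 were lower (*Unc13a*, *Sv2a*, *Synj1*, *Syt1*, *Syp*, *Syngr3*, *Sv2b* and *Bsn*) against 6.35%. In Ctrl every neurites library was above every somas library for 4 of 38 genes and below for 10, against 17.8% and 15.9% of all genes. In MG132 this held for 2 and 12 of 38, against 18.9% and 17.9%. The median log2 fold change of the 38 genes, neurites over somas, was -0.39 in Ctrl and -0.64 in MG132, beside -0.04 and -0.08 over all genes. The nuclear RNAs *Malat1*, *Meg3*, *Neat1*, *Snhg11* and *Miat* moved the same way, 4 of 5 lower in Ctrl neurites and 5 of 5 in MG132 neurites. Of the 18 neuron markers 3 were higher and 0 lower in Ctrl neurites, and 2 higher and 1 lower after MG132. In the model with the replicate number 3 were higher and 2 lower in Ctrl, and 2 higher and 5 lower after MG132. Of the 10 astrocyte markers 4 were higher and 1 lower in Ctrl neurites, and 5 and 1 after MG132. The part of nuclear or glial RNA in the presynaptic values was not tested.

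With the replicate number as a term, 4 of 38 genes were higher in Ctrl neurites (*Ppfia3*, *Rims1*, *Cplx2* and *Rims2*) against 13.7% of all genes, and 13 of 38 were lower against 9.28%. After MG132, 2 of 38 were higher (*Erc1* and *Rims1*) against 15.1%, and 17 of 38 were lower against 11.7%. These values are relative to the centre that TMM sets. On total counts the median of all genes moved to -0.70 in Ctrl and -0.86 in MG132, with 0 presynaptic genes higher and 23 and 30 lower in neurites. On total counts without mitochondrial genes and the most abundant gene it moved to -0.50 and -0.51, with 15 and 20 lower. The share of all genes called on either scaling is not given, so these counts cannot be set against it.

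**Figure D3:**
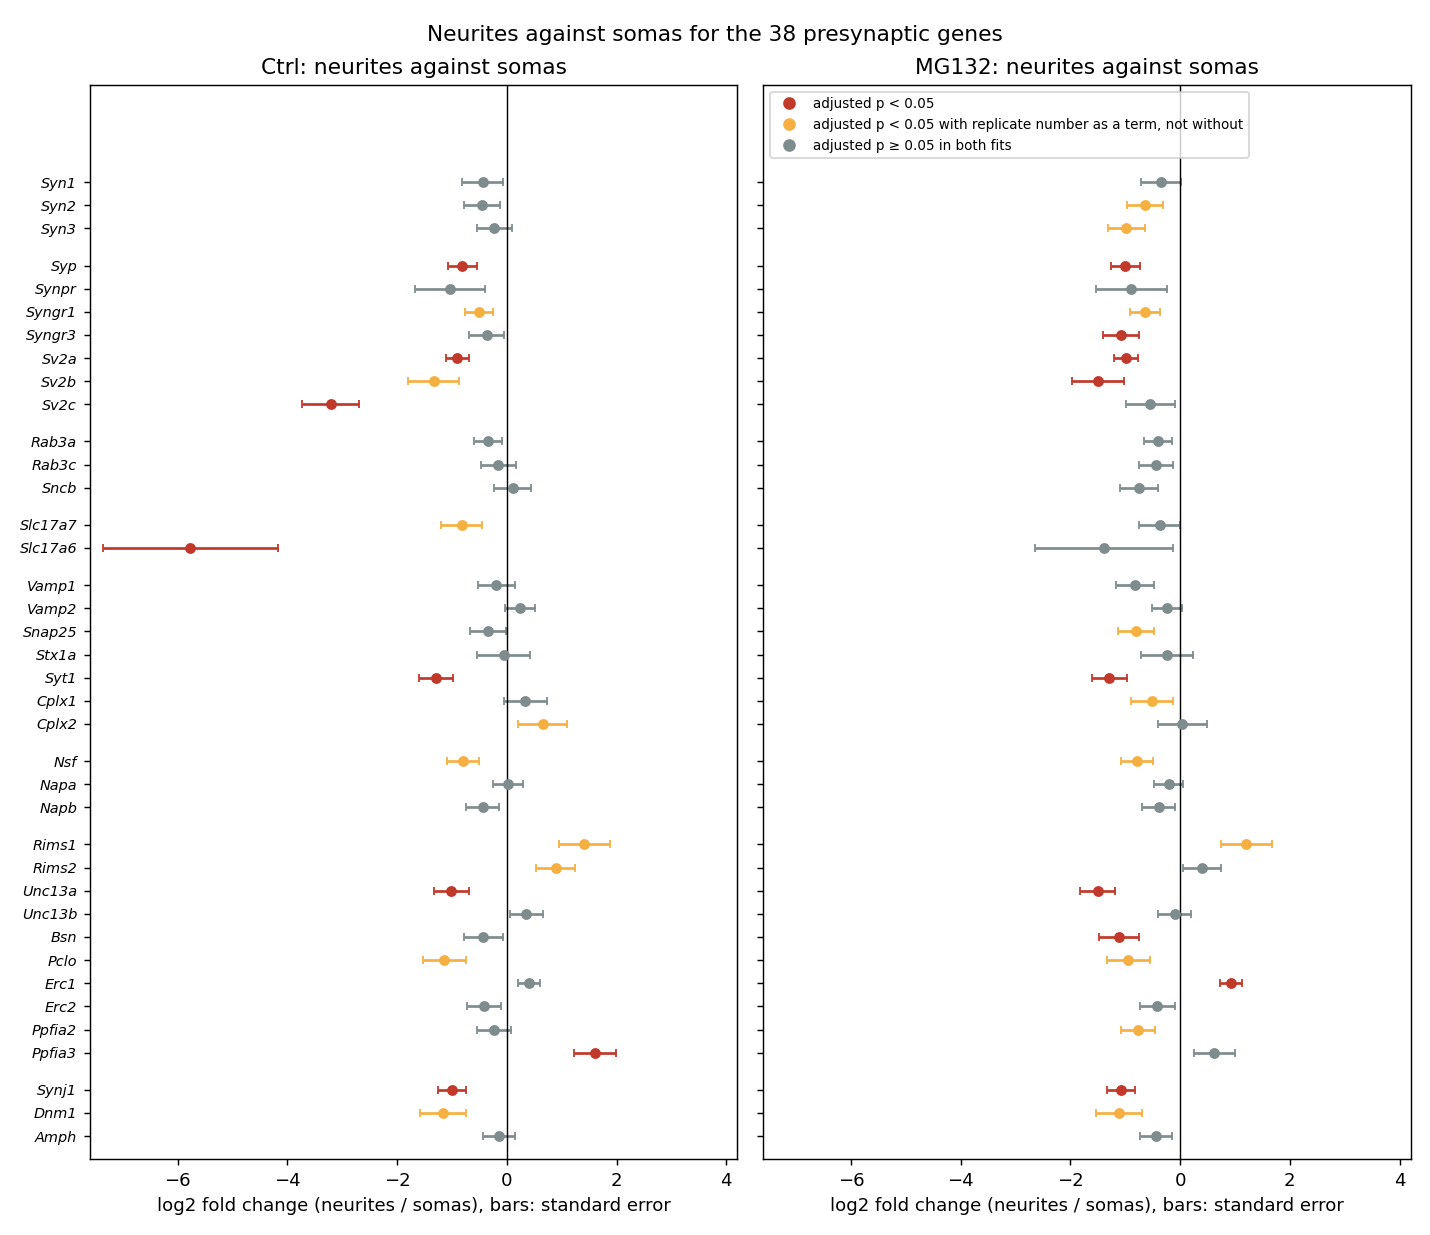
Log2 fold change of neurites over somas (x axis) for each of the 38 presynaptic genes, ordered by role, in Ctrl (left) and MG132 (right), with bars for the standard error of the fit. Colours mark the same 3 classes as in the plot of the MG132 response. *Ppfia3*, *Rims1* and *Rims2* lie to the right of 0 in Ctrl, and *Sv2a*, *Syt1*, *Synj1* and *Unc13a* to the left in both. The *Slc17a6* points rest on 0 to 47 counts per library.

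**Figure D4:**
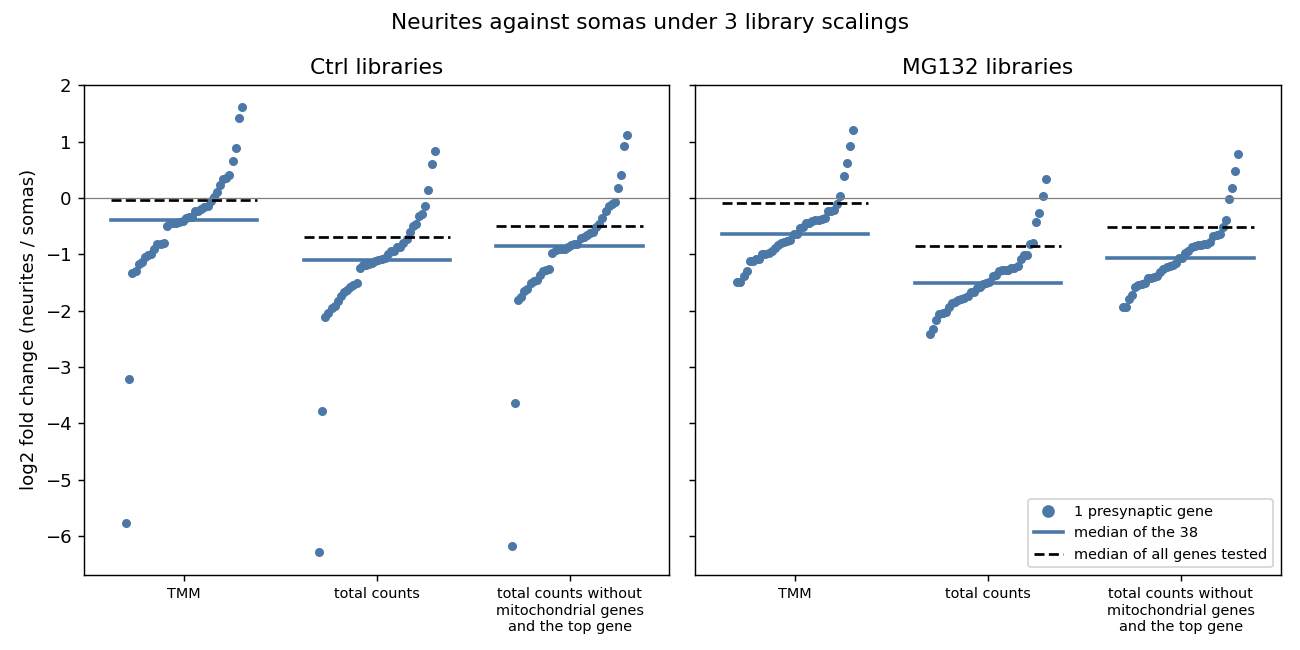
Log2 fold change of neurites over somas (y axis) under 3 library scalings, in Ctrl (left) and MG132 (right), with a point for each presynaptic gene, a blue line at their median and a dashed line at the median of all genes tested. The dashed line lies at -0.04, -0.70 and -0.50 in Ctrl, and the blue line lies below it under each scaling.

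The genes lower in neurites came from several roles. *Sv2a* had -0.90 ± 0.22 SE on the log2 scale (edgeR adjusted p = 0.0106) in Ctrl and -0.99 ± 0.22 SE on the log2 scale (edgeR adjusted p = 0.00538) in MG132, and both calls held without any 1 library. *Syt1* had -1.29 ± 0.31 SE on the log2 scale (edgeR adjusted p = 0.0112) in Ctrl and -1.29 ± 0.31 SE on the log2 scale (edgeR adjusted p = 0.0101) in MG132, and the MG132 call did not pass without 1 of MG132 somas 1 or MG132 neurites 2 (adjusted p 0.0512 to 0.0639). Every neurites library was below every somas library for both genes in both conditions. *Synj1* had -1.0030 ± 0.25 SE on the log2 scale (edgeR adjusted p = 0.0136) in Ctrl and -1.08 ± 0.25 SE on the log2 scale (edgeR adjusted p = 0.00781) in MG132. The Ctrl call did not pass without 1 of Ctrl somas 1 or Ctrl neurites 3 (adjusted p 0.0512 to 0.0564), and the MG132 call did not pass without MG132 somas 1 (adjusted p = 0.063). *Unc13a* had -1.01 ± 0.31 SE on the log2 scale (edgeR adjusted p = 0.0414) in Ctrl, which did not pass without 1 of Ctrl somas 1, Ctrl somas 2, Ctrl neurites 2 or Ctrl neurites 3 (adjusted p 0.0678 to 0.142), and -1.50 ± 0.32 SE on the log2 scale (edgeR adjusted p = 0.00428) in MG132. *Unc13b*, by contrast, did not pass, and the test of the paralogs' difference was not run. *Syp* had -0.81 ± 0.26 SE on the log2 scale (edgeR adjusted p = 0.0491) in Ctrl, which did not pass without 1 of Ctrl somas 1, Ctrl somas 2, Ctrl somas 3, Ctrl neurites 2 or Ctrl neurites 3 (adjusted p 0.0603 to 0.144), and -0.9989 ± 0.26 SE on the log2 scale (edgeR adjusted p = 0.0162) in MG132, which did not pass without 1 of MG132 somas 1, MG132 neurites 2 or MG132 neurites 3 (adjusted p 0.0639 to 0.0944).

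Others passed as lower in neurites in 1 condition of the edgeR fit without the replicate number, which does not show that the conditions differed. *Sv2c* in Ctrl had -3.21 ± 0.52 SE on the log2 scale (edgeR adjusted p = 5.7e-04), which passed without any 1 library. After MG132 *Sv2c* did not pass (adjusted p = 0.45). *Sv2b* was lower after MG132 (log2 fold change -1.50 ± 0.47 SE, edgeR adjusted p = 0.0396), a call that did not pass without 1 of MG132 somas 1, MG132 somas 3, MG132 neurites 2 or MG132 neurites 3 (adjusted p 0.0603 to 0.218) or in DESeq2 (0.0629). In Ctrl its value was close to that (log2 fold change -1.34, edgeR adjusted p = 0.0697). It passed there with the replicate number as a term (log2 fold change -1.37, adjusted p = 1.93e-05). *Syngr3* was lower after MG132 (log2 fold change -1.08 ± 0.32 SE, edgeR adjusted p = 0.0303), a call that did not pass without 1 of MG132 somas 1, MG132 somas 3, MG132 neurites 1, MG132 neurites 2 or MG132 neurites 3 (adjusted p 0.0508 to 0.179). *Bsn* was lower after MG132 (log2 fold change -1.12 ± 0.36 SE, edgeR adjusted p = 0.0452), with 170.4, 126 and 97.5 CPM in somas and 69.7, 30.2 and 82.7 in neurites. That call did not pass without 1 of MG132 somas 1, MG132 somas 2, MG132 neurites 1 or MG132 neurites 2 (adjusted p 0.069 to 0.202), and the Ctrl values were 127, 95.7 and 77.9 against 116, 52.2 and 57.5 CPM.

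With the replicate number as a term, several more were lower in neurites. *Dnm1* passed in Ctrl (log2 fold change -1.24, adjusted p = 1.97e-05) and MG132 (log2 fold change -1.15, adjusted p = 4.95e-05), and *Pclo* in Ctrl (log2 fold change -1.17, adjusted p = 1.32e-04) and MG132 (log2 fold change -0.9995, adjusted p = 6.87e-04). *Syngr1* passed in Ctrl (log2 fold change -0.52, adjusted p = 0.0168) and MG132 (log2 fold change -0.65, adjusted p = 0.00321). *Slc17a7* passed in Ctrl (log2 fold change -0.82, adjusted p = 4.59e-04) and not after MG132 (log2 fold change -0.42, adjusted p = 0.0521). *Snap25* (log2 fold change -0.82, adjusted p = 3.59e-04), *Syn2* (log2 fold change -0.66, adjusted p = 0.00351), *Syn3* (log2 fold change -0.96, adjusted p = 0.031), *Cplx1* (log2 fold change -0.54, adjusted p = 0.038) and *Ppfia2* (log2 fold change -0.78, adjusted p = 0.00536) passed after MG132. Whether the conditions differed is given by the interaction test.

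The active zone group had genes on both sides. In the model with the replicate number, 3 of its 10 genes were higher and 2 lower in Ctrl neurites, and 2 were higher and 4 lower after MG132. *Ppfia3*, a liprin of the active zone, measured 34.4, 22.5 and 24.7 CPM in Ctrl somas and 137, 42.3 and 71.6 in Ctrl neurites, with no overlap (log2 fold change 1.61 ± 0.38 SE, edgeR adjusted p = 0.00994). The call did not pass without 1 of Ctrl somas 2, Ctrl somas 3 or Ctrl neurites 1 (adjusted p 0.0507 to 0.0631). After MG132 it measured 47.4, 38.6 and 31.2 against 75.9, 33.9 and 72 CPM, which overlapped. *Rims1* passed with the replicate number as a term in Ctrl (log2 fold change 1.27, adjusted p = 2.16e-04) and in MG132 (log2 fold change 1.09, adjusted p = 9.75e-04), *Rims2* in Ctrl (log2 fold change 0.85, adjusted p = 0.00294) and *Cplx2* in Ctrl (log2 fold change 0.67, adjusted p = 0.00217). On total counts the Ctrl value of *Cplx2* turned to -0.15. *Erc1* was higher in neurites after MG132 (log2 fold change 0.93 ± 0.21 SE, edgeR adjusted p = 0.00582), and its value fell to 0.48 (adjusted p = 0.0866) on total counts without mitochondrial genes and the most abundant gene and to 0.04 (0.919) on total counts.

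Whether the MG132 response differed between the fractions was tested as an interaction, the neurites response minus the somas response. 0 of 38 genes passed in either direction, against 0% of all genes higher and 0% lower in the same test. At an unadjusted p under 0.05 there was 1 gene higher and 0 lower among the 38, against 1000 of all 14185 genes in either direction. DESeq2 called 0 but gave no adjusted p for 9 of the 38 genes, *Sv2c* among them. With the replicate number as a term 0 of 38 passed, against 0.331% of all genes higher and 0.303% lower, and 3 and 5 genes were under an unadjusted 0.05. The share of all genes at that unadjusted level is not given for this fit, so the 3 and 5 cannot be set against it. The 1 gene was *Sv2c* (log2 2.67 ± 0.68 SE, edgeR adjusted p = 0.414, and 0.075 with the replicate number as a term), which was higher in 3 of 3 pairs. The median SE of the interaction over the 38 genes was 0.46 on the log2 scale. The falls found in neurites and not in somas were therefore not shown to differ between the fractions.

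Summed over the set, the 38 genes held 4565, 2931 and 3122 CPM in Ctrl somas, 4076, 2609 and 2873 in MG132 somas, 4027, 2312 and 1946 in Ctrl neurites and 2967, 1550 and 2218 in MG132 neurites for replicates 1, 2 and 3. All groups overlapped, and replicate 1 was the highest of each. Within same-numbered pairs the sum was lower with MG132 in 3 of 3 pairs of somas and 2 of 3 of neurites, and lower in neurites than in somas in 3 of 3 pairs of both conditions, with no test made. Set against the summed neuron markers of the same library, the ratio was 2.04 ± 0.153 in Ctrl somas and 1.96 ± 0.142 in MG132 somas (SD, n = 3). In neurites it was 1.35 ± 0.265 in Ctrl and 1.21 ± 0.228 in MG132. The vesicle membrane group averaged 718 ± 151 CPM in Ctrl somas, 464 ± 113 in MG132 somas, 391 ± 167 in Ctrl neurites and 229 ± 56.8 in MG132 neurites. The active zone group averaged 607 ± 116 CPM in Ctrl somas, 698 ± 153 in MG132 somas, 624.5 ± 269 in Ctrl neurites and 649 ± 209 in MG132 neurites.

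**Figure D5:**
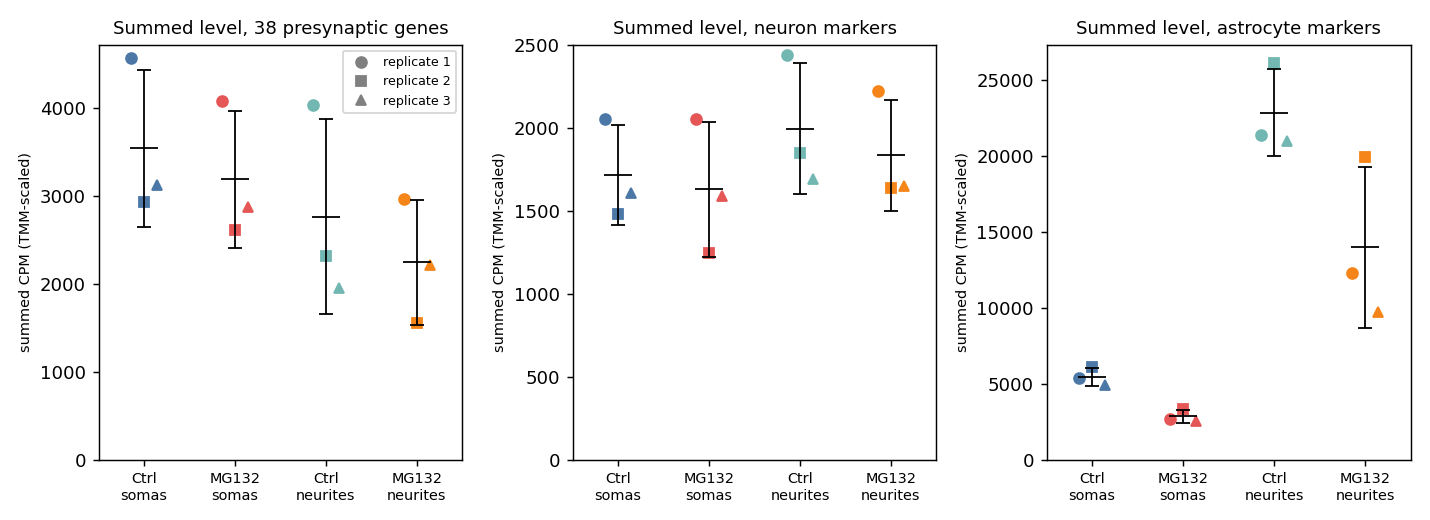
Summed TMM-scaled CPM per library (y axis, from 0) of the 38 presynaptic genes, the 18 neuron markers and the 10 astrocyte markers, with the mean and SD of 3 libraries in black and a symbol for each replicate number. Replicate 1 is the highest library of every group in the first 2 panels, and the astrocyte markers reach 9730 to 26170 CPM in neurites.

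Other genes of the same machinery were counted from a list of 73, of which 68 were tested. In somas 6 rose and 8 fell, against 15.5% and 11.9% of all genes, and in neurites 5 rose and 12 fell, against 14.7% and 12.3%. Their median response was -0.10 (somas) and -0.28 (neurites) on the log2 scale. With the replicate number as a term, 8 rose and 12 fell in somas, against 19% and 17.4% of all genes, and 7 rose and 20 fell in neurites, against 17.7% and 18.1%. *Ppfia1*, a liprin that many tissues express, rose in both fractions, from 29.3, 22.4 and 30.0 to 61.2, 67.2 and 70.9 CPM in somas (log2 fold change 1.29 ± 0.19 SE, edgeR adjusted p = 2.11e-04) and from 44.4, 32.8 and 36.1 to 85.2, 79.1 and 102 in neurites (log2 fold change 1.23 ± 0.19 SE, edgeR adjusted p = 2.45e-04). *Rab3gap1*, a subunit of the GTPase-activating protein of Rab3, rose in somas (log2 fold change 0.81 ± 0.15 SE, edgeR adjusted p = 0.00104) and in neurites (log2 fold change 0.70 ± 0.15 SE, edgeR adjusted p = 0.00281). *Lin7c*, an adaptor of the CASK complex, rose in somas (log2 fold change 0.78 ± 0.15 SE, edgeR adjusted p = 0.00178), and *Syt4*, a synaptotagmin induced by activity, rose in neurites (log2 fold change 1.68 ± 0.32 SE, edgeR adjusted p = 0.00142) and also in somas. On total counts the somas rises of *Rab3gap1* (adjusted p = 0.07735) and *Lin7c* (0.08825) and the neurites rise of *Rab3gap1* (0.237) did not pass. On neuron-marker scaling the somas rise of *Lin7c* (0.0569) and the neurites rise of *Rab3gap1* (0.0707) did not.

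On the falling side, *Syt11*, a synaptotagmin that does not bind calcium, fell in somas (log2 fold change -0.71 ± 0.16 SE, edgeR adjusted p = 0.00508) and in neurites (log2 fold change -1.05 ± 0.17 SE, edgeR adjusted p = 3.31e-04). *Ptprs*, a receptor phosphatase that organises synapses, fell in neurites and in somas (log2 fold change -0.66 ± 0.18 SE, edgeR adjusted p = 0.0115), a somas call that was lost without Ctrl somas replicate 3 or MG132 somas replicate 2 (adjusted p 0.0575 and 0.0522). On total counts and on neuron-marker scaling the somas falls of *Syt11* (adjusted p = 0.1245 and 0.1817) and *Ptprs* (0.1193 and 0.1548) did not pass. *Ston2*, the endocytic adaptor of synaptotagmin, went from 201, 134 and 171 to 61.3, 45.5 and 67.0 CPM in neurites (log2 fold change -1.55 ± 0.24 SE, edgeR adjusted p = 2.77e-04), with no overlap. *Syt10* fell in neurites (edgeR adjusted p = 0.00142), where it measured 1.85, 3.8 and 1.01 CPM in Ctrl. The MG132 neurites libraries, of 6545752 to 22166347 counts in total, held 1, 2 and 1 raw counts of it, too few to give a fold. Between the fractions, 8 of the 68 genes were higher and 7 lower in Ctrl neurites, against 10.2% and 4.65% of all genes. After MG132, 5 were higher and 11 lower, against 11.4% and 6.35%. Adding the replicate number gave 10 higher and 18 lower in Ctrl, against 13.7% and 9.28%, and 10 and 21 in MG132, against 15.1% and 11.7%. Their median log2 fold changes of neurites over somas, without that term, were -0.20 and -0.52, with no test made.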

How the data were processed

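RNA from the somas and neurites fractions of hippocampal cultures was captured by polyA and sequenced as 12 libraries. The deposited values are gene counts: the authors trimmed reads with Trimmomatic 0.38.0, mapped them with STAR (build mm10) and assigned reads to Entrez genes with featureCounts 2.0.1 at its default parameters, per the labels and the study's methods. Counts are raw, with no normalization, and no replicates were pooled.

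Tests used edgeR 4.0.16 under R 4.3.3 (TMM scaling, filterByExpr, quasi-likelihood test on 4 group means from all 12 libraries). DESeq2 1.42.0 was an alternative. Scripts were tested on simulated counts. Total counts were 4247610 to 22166347 per library, and the spread between libraries sets the standard errors. No 2 libraries of the 66 pairs held identical counts. Whether libraries of a group came from separate animals is not given in the sources used here, so p-values measure the spread between these libraries.

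Library names give same-numbered libraries a shared date, with 1 exception in MG132 neurites. Deviations from group means correlated in 18 same-numbered pairs at r = 0.0972 to 0.248 (mean 0.199), with 17 over 0.1, and 12 of 12 libraries correlated best with their own number. The replicate number was therefore used as a stand-in for culture date. MG132 neurites 3 was kept under its number, although its name gives another date. Its r with same-numbered libraries was 0.187 to 0.224 over all genes. Over the presynaptic genes alone it was 0.162 with either somas library and 0.525 with Ctrl neurites. The only negative r over these genes was -0.054, for Ctrl neurites 2 and MG132 somas 2. No blocked fit without MG132 neurites 3 is given.

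The 38 genes and all gene lists were chosen with earlier results of these data known. By rule, all 38 genes were accounted for by role. Library values were given for genes that passed in a comparison (at most the 8 with the smallest adjusted p in each) and for pairs or sets of paralogs, and means for the others. From the 73 other presynaptic genes, the 3 with the smallest adjusted p in each direction of each MG132 comparison were named. A gene that this rule picked is not reported here. Overlaps between genes were taken from GENCODE M21 and promoters from RefSeq GRCm38.p6. Scaling on neuron markers and the use of replicates 2 and 3 alone were added after seeing the data.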

Additional observations from a re-analysis of the deposited data

Results flagged for a closer look

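The neurites to somas ratio of *Vamp2* was higher than 1 in all 3 Ctrl pairs and lower than 1 in all 3 MG132 pairs, which singled it out. The ratio in MG132 minus that in Ctrl was -0.47 on the log2 scale, and this difference did not pass (edgeR adjusted p = 0.885, and 0.369 with the replicate number as a term). *Rims2* was singled out because MG132 libraries were higher in all 3 somas pairs and lower in all 3 neurites pairs. The neurites response minus the somas response was -0.49 on the log2 scale and did not pass either (edgeR adjusted p = 0.921, and 0.546 with the replicate number as a term).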

How the results depend on the processing

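The share of all genes called is given above only for the edgeR fits with and without the replicate number. The counts of presynaptic genes called with MG132 changed with the settings as follows. In somas the 2 higher became 1 on total counts and 1 on replicates 2 and 3. The 2 lower in somas became 0 on total counts, 0 on neuron-marker scaling, 0 at an adjusted p under 0.01 (with or without a 1.7-fold limit) and 7 with the replicate block. Among the 3 higher in neurites, *Napa* did not pass on total counts, on total counts without mitochondrial genes and the most abundant gene, or at an adjusted p under 0.01. In neurites the 7 lower became 13 with the replicate block, 3 with only the groups compared, 2 on neuron-marker scaling, 1 on replicates 2 and 3 and 1 at the stricter limits. Leaving out 1 library gave 0 to 2 lower in somas (0 without Ctrl replicate 1 or MG132 replicate 2 or 3), 2 to 3 higher in neurites, and 0 to 6 lower in neurites (1 without Ctrl replicate 1, 2 and 0 without MG132 replicates 2 and 3). For neurites over somas in Ctrl, the 1 higher became 0 on total counts or replicates 2 and 3, 2 in DESeq2 or with no filter, 4 with the replicate block, and 0 to 2 without 1 library. The 7 lower became 23 on total counts, 15 on total counts without mitochondrial genes and the most abundant gene, 12 with no filter or neuron-marker scaling, 13 with the replicate block, 1 at the stricter limits and 3 to 9 without 1 library. In MG132 the 1 higher became 0 on both total-count scalings and on neuron-marker scaling, 2 in DESeq2, with no filter or with the replicate block, and 1 to 2 without 1 library. The 8 lower became 30, 20, 13 and 17 on total counts, on the reduced total, on neuron-marker scaling and with the replicate block, 3 at the stricter limits and 2 to 10 without 1 library. The interaction gave 0 in either direction under each setting run, though DESeq2 gave no adjusted p for 9 of the 38 genes there.

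The 76 values of single genes followed here were mostly picked for passing with or without the replicate block, so they give no rate. Of these, 30 that did not pass without the replicate block passed with it and 0 were lost with it, and it changed no other call. *Cplx2* changed sign in 2 settings, to 0.10 for MG132 in somas without Ctrl somas replicate 1 (range -0.998 to 0.0967 over the libraries left out) and to -0.15 for neurites over somas in Ctrl on total counts. The mean summed level of the 38 genes was 4715 CPM in Ctrl somas and 4150 in MG132 somas on total counts, with 2181 in Ctrl neurites and 1599 in MG132 neurites, and 7034 and 3952 CPM in the somas and neurites of Ctrl and 5953 and 3101 CPM in those of MG132 on the reduced total. The cause of these shifts was not tested. Depth limits *Slc17a6* and *Sv2c*, which had under 15 counts in each Ctrl neurites library.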
